A study of Mus musculus with 131 samples.

Results

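Fat-only undermethylated tiles are 100 bp stretches of the mouse genome in which DNA from fat was at least 50 points less methylated than DNA from neutrophils and than the mean of 6 adult hepatocyte samples. Of 913286 tiles measured by reduced representation bisulfite sequencing (RRBS), 375549 had a value in fat, neutrophils and all 6 of these hepatocyte samples, and 6719 of them (1.79%) met the rule. For comparison, 2615 tiles were low in neutrophils only and 4710 in the hepatocytes only under the same limit. The members were thus selected on the methylation measured in fat, neutrophils and the 6 adult samples, whose levels here describe the choice and were not tested. Newborn, 3 week, double knockout, insulin receptor knockout and cultured hepatocytes played no part in it.

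All mice were C57Bl. The fat came from 1 mouse of 25 weeks and the neutrophils from 1 mouse of 36 weeks, so neither has a replicate. The column name calls the fat pure, the label gives only fat, and no source used here states a purification of adipocytes. Fat tissue holds adipocytes, progenitors, vessel and connective tissue cells, whose shares in this value cannot be told apart. The 6 controls of the rule were hepatocytes at 15 weeks from WT mice that, by their labels, received Cre, 3 of them 1 day and 3 of them 3 weeks after birth. Double knockout (DKO) mice carried Tet2F and Tet3F alleles and received adeno-associated virus 8 with Cre under the hepatocyte-specific Tbg promoter, and were injected at either age, with 2 RRBS samples each at 15 weeks. Insulin receptor knockout (InsR KO) mice carried floxed InsR alleles and were injected soon after birth, with 2 samples used. Their labels give no age, and the study compared them with WT mice at 15 to 20 weeks. Uninjected 3 week mice gave 2 samples. A further 2 samples were liver cells of newborns grown in culture, which had not been sorted. The labels give an age of 1 week, whereas the study's methods and the column name of 1 of them give several weeks of culture, so its length is uncertain. The other hepatocytes were separated on a Percoll gradient and sorted as CD45-negative cells by size. Whole-genome bisulfite sequencing (WGBS) came from 1 library each of WT hepatocytes labelled newborn with an age of 1 week, of uninjected adult WT hepatocytes at 15 weeks and of DKO hepatocytes at 15 weeks injected at 1 day. Peaks of the histone marks H3K4me1 and H3K27ac came from 1 library per mark and genotype. Their labels give 15 weeks and, for the DKO, injection at 1 day. Open chromatin (ATAC-Seq) and binding of HNF6 came from 2 WT and 2 DKO libraries each, whose labels give no age. The study describes the ATAC-Seq samples as adult hepatocytes of 15 weeks, with the DKO injected at 1 day. Peaks of 5-hydroxymethylcytosine (5hmC) came from 1 library of mice of 20 days. RNA-Seq covered WT hepatocytes at 1, 3 and 15 weeks and control and DKO hepatocytes at 15 weeks, but in the columns used no fat, culture or InsR KO. Whether replicates are separate litters is not stated, so p-values measure the spread between these samples.

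DNA methylation in mammals sits mostly on the cytosine of CpG dinucleotides, and the regulatory elements of a cell type are usually unmethylated in that cell type and methylated elsewhere. TET enzymes oxidize 5-methylcytosine to 5hmC, a step toward removal of the methyl group. Adipocytes arise from mesenchymal progenitors under factors such as PPARγ, C/EBP, EBF and NF1, whereas hepatocytes arise from endoderm.

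The first set of sequences shows where the CpGs lie in fat-only tiles of runs of neighbouring tiles and of adipocyte genes. They were read from the plus strand of mm9 (NCBIM37), and capitals mark the CpGs. Cyp26c1 is the exon and intron at chr19:37760301-37760500, S1pr2 an intron at chr9:20776901-20777100, Retn the promoter at chr8:3654801-3655000, Adipoq an intron at chr16:23148601-23148700, Mgll an intron at chr6:88737501-88737800 and Aqp7 an intron at chr4:40993901-40994000. Rusc2, the intron at chr4:43411601-43411800, is shown for its loss of methylation in culture.
Cyp26c1: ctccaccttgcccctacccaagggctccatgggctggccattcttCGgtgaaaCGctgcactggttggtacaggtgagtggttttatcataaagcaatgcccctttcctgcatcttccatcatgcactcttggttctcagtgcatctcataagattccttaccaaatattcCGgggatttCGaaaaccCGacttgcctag
S1pr2: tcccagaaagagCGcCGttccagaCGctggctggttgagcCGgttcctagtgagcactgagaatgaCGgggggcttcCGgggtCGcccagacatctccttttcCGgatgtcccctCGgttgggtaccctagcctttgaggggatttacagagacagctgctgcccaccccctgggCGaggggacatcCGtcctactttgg
Retn: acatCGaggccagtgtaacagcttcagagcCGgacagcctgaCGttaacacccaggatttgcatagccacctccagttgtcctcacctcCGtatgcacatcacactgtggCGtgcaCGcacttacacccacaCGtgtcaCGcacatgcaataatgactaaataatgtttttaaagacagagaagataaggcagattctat
Adipoq: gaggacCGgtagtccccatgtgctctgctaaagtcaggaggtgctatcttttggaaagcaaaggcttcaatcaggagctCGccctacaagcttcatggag
Mgll: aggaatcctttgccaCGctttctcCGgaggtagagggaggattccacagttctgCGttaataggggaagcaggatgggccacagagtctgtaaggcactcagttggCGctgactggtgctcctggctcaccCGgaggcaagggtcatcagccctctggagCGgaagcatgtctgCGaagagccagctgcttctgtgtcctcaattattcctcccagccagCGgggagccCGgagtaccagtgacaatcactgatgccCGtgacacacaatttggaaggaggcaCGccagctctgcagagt
Aqp7: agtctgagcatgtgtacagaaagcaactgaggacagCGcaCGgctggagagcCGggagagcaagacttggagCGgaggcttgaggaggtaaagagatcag
Rusc2: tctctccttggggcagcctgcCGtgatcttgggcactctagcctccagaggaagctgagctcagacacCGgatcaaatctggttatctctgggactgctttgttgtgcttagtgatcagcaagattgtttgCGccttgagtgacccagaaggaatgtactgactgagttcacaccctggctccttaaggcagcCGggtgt

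The second set shows tiles that were methylated in 3 week hepatocytes and low in culture and that hold the AP-1 motif TGANTCA, which capitals mark. They come from the same strand and build, at chr3:121307101-121307200 (A730020M07Rik), chr5:135422901-135423000 (Cldn4), chr2:167615001-167615100 (Tmem189), chr12:82942201-82942300 (Pcnx), chr7:81521701-81521800 (Slco3a1) and chr2:157963701-157963800 (Tgm2). The Cldn4 tile is in the promoter, Slco3a1 and Tgm2 are intronic, and the others are intergenic and named by the nearest gene.
A730020M07Rik: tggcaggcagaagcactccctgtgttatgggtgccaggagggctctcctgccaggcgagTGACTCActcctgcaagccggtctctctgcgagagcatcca
Cldn4: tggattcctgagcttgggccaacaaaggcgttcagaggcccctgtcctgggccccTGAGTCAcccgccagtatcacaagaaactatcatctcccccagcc
Tmem189: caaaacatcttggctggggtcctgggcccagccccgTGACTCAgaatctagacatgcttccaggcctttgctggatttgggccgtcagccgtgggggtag
Pcnx: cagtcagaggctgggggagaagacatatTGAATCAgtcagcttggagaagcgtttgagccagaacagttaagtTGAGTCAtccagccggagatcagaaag
Slco3a1: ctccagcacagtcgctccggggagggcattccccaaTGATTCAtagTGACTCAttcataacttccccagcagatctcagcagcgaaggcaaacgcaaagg
Tgm2: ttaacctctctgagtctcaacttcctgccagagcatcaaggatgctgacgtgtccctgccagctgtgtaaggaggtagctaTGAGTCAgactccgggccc

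In fat the 6719 tiles had a mean methylation of 21.2% and a median of 21.4%. Only 1452 of them (21.6%) were under 10%, 1575 (23.4%) lay between 10 and 20%, 1771 (26.4%) between 20 and 30%, 1465 (21.8%) between 30 and 40% and 456 (6.79%) between 40 and 50%. Most of the tiles were thus partly methylated in fat tissue. The mean was 89.1% in neutrophils and 87.3% in the 6 controls. The largest distance, from 0% in fat to 100% in both others, was at an intronic tile 10518 bp from Prpf19 and at an intron of Nedd4, a ubiquitin ligase. Map3k14, an NF-κB kinase, followed with 99.7 points, and Flt1, the VEGF receptor of endothelial cells, with 99 points. A tile near Ank3 lay just inside the limit with 43.3% in fat and 93.3% in neutrophils, and a tile in Wnt7b lay just outside with 31.9% in fat and 81.9% in the controls.

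The tiles were far from gene starts. Their median distance to the nearest transcription start was 23296 bp, against 11284 bp for all compared tiles, 12574 bp for neutrophil-only and 10676 bp for hepatocyte-only tiles. Promoters, taken as 1 kb upstream to 100 bp downstream of a start, held 4.99% of the fat-only tiles and 19.7% of all compared tiles. Introns held 42.5% against 29.4%, and intergenic sequence 41.3% against 36.7%. Coding exons held 8.25%, compared with 10.9%. The sequence was also poorer in CpG, with a mean of 2.72 CpGs per fat-only tile against 4.65 over all compared tiles and 3.3 over tiles of at least 80% in controls and neutrophils. These shares describe the tiles and were not tested.

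Tiles less than 1000 bp apart formed 5206 regions, of which 4029 (77.4%) held a single tile and 18 held 5 or more. The largest, with 9 of its 12 compared tiles, started at the first exons of Cyp26c1, which codes for an enzyme that degrades retinoic acid, and ran from chr19:37760101-37762300. Fat had a mean of 18.5% there, with tiles between 1.43 and 40.3%. The 3 week samples had 79.9 and 85.8%, InsR KO 89.9 and 77.5%, and the cultures 77.8 and 67.7%, over 6 to 9 tiles with a value. Newborn WGBS gave 71.3%. The region was therefore high in every hepatocyte sample, lowest in a culture.

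An intron of Emid2, a collagen gene, held 7 fat-only tiles of 7 compared (chr5:137286401-137287100), with 14.1% in fat, 67.1 and 76.6% at 3 weeks, 73.7 and 66.8% in culture and 76.9% in newborn WGBS. In S1pr2, which codes for a sphingosine 1-phosphate receptor, 5 of 5 intronic tiles (chr9:20776601-20777300) averaged 13.3% in fat. They were at 96.1% in both 3 week samples, 91.7 and 94.7% in InsR KO, and 100 and 91.2% in culture, although culture 1 and InsR KO 1 had a value in only 2 tiles. The run of 6 tiles in Nav2 was at 16.5% in fat and 92.7 and 93.9% in culture. In Numa1, coding for a spindle protein, 6 tiles of the promoter and first coding exons were at 19.6% in fat and 90.8 and 93.7% in culture. The 5 tiles near Muted were at 9.19% in fat and 87.6 and 95.8% in culture. AI661453 had 14.9% in fat and 72.7 and 70% in culture over 6 tiles, and 2610109H07Rik had 7.97% in fat and 74.2 and 74.6% in culture. All 8 of these runs, the longest by number of tiles, were thus low in fat and at 59.8% or more in each hepatocyte sample.

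The genes with the most fat-only tiles were, after the read-through locus Gm20388 with 57 of 2822 compared tiles, Fgfr2 with 19 of 654, Wwox with 14 of 223, Camta1 with 13 of 322, and Fam38a and Tiam1 with 11 each, of 63 and 142. Fgfr2 codes for a fibroblast growth factor receptor and Fam38a for a mechanosensitive channel. Genes with many measured tiles have more chances to hold one, as the denominators show. In all, 3696 tiles (55%) lay in 2078 of the 16975 protein-coding genes with a compared tile.

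Of 48 adipocyte genes with a compared tile, 18 (37.5%) held at least 1 fat-only tile, against 12.2% of all protein-coding genes. These 39 tiles made up 4.17% of the compared tiles of the list, against 1.59% over all genes, at a median of 12 compared tiles per gene in the list and 10 overall. Neutrophil-only tiles were found in 2 genes of the list (4.17%) and hepatocyte-only tiles in 11 (22.9%). Smooth and skeletal muscle genes had a fat-only tile in 5 of 18 (27.8%), endothelial genes in 5 of 21 (23.8%) and genes of mesenchymal and adipose progenitors in 9 of 43 (20.9%). By tiles, the muscle list had 4.13%, close to the adipocyte list, the progenitor list 3.14% and the endothelial list 1.82%. None was found among the 14 hepatocyte, 10 mesothelial, 10 macrophage and lymphoid, 10 stellate or 39 HOX genes with a compared tile. Of the hepatocyte genes, 8 (57.1%) held a hepatocyte-only tile instead. The counts are descriptions of lists that overlap in cell types, and no test was run on them.

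**Figure D1:**
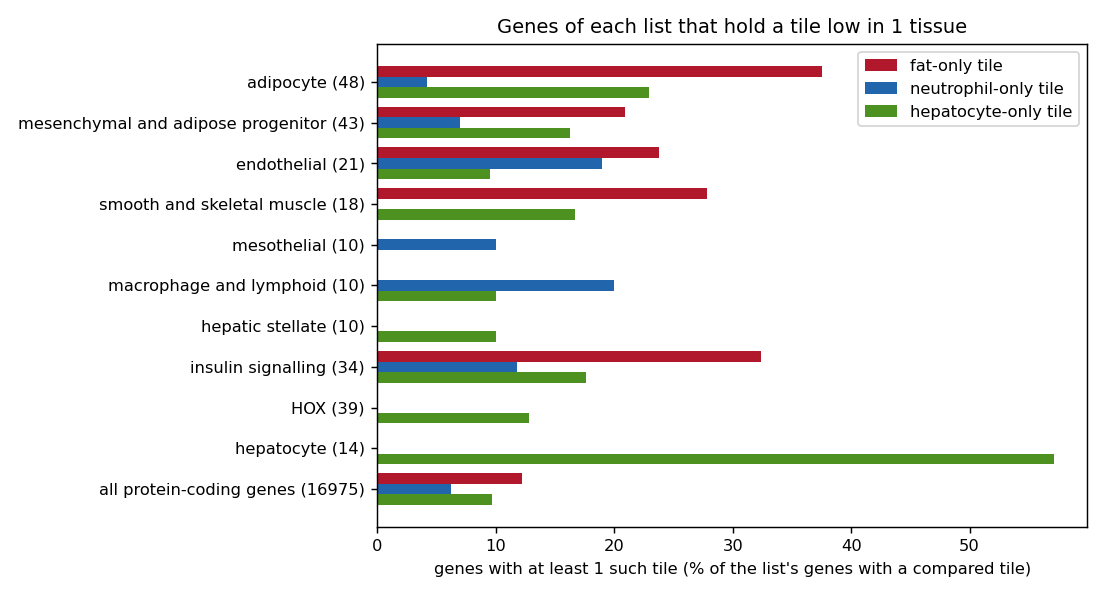
Share of the genes of each list (vertical axis, number of genes with a compared tile in parentheses) that hold at least 1 fat-only, neutrophil-only or hepatocyte-only tile (horizontal axis, %). Fat-only tiles were in 37.5% of the adipocyte genes and 12.2% of all protein-coding genes, and in none of the hepatocyte genes, of which 57.1% held a hepatocyte-only tile.

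Several genes of adipocyte hormones and lipid storage carried the tiles. Retn, coding for the adipocyte hormone resistin, had both of its compared tiles, in the promoter, at 0% in fat, and at 67.9% in the controls, 65.8% in newborn WGBS, 78.6% at 3 weeks and 76.4% in culture. The intronic tile of Adipoq, the gene of adiponectin, had 28.4% in fat, 90.3% at 3 weeks, 92.1% in InsR KO and 92.2% in culture. There the adult WGBS library had 40.8% in the 200 bp tile that covers it, whereas newborn and DKO WGBS had 91.1 and 86.1%, and adult RRBS of the 100 bp tile had 83.3%. Mgll, coding for monoglyceride lipase, had 5 intronic tiles with a mean of 6.38% in fat, 85.6% in newborn WGBS and 81.7% in culture. The tile of the glycerol channel gene Aqp7 had 6.12% in fat, 95.5% at 3 weeks and 85.4% in culture. Cidea, a lipid droplet gene of brown fat, had 2.56% in fat and 78% in culture. Prdm16 and Ebf2, regulators of brown adipocytes, had 6 and 3 tiles, at 21.5 and 37.2% in fat and 76.4 and 86.9% in culture. Pparg, Fabp4, Lpl and Lep had no fat-only tile.

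Among progenitor genes, Zfp423, coding for a preadipocyte zinc finger factor, had 8 tiles at 15.3% in fat and 82.7% at 3 weeks. Col15a1, a basement membrane collagen gene, had 6 at 27.3 and 87%. The promoter tile of the preadipocyte gene Dlk1 was an exception in the newborn, with 28% in newborn WGBS, 40.4% in adult WGBS and 62.3% in the RRBS controls. Mylk, coding for myosin light chain kinase, had 8 intronic tiles at 27.1% in fat and 93.9% in culture. The promoter tile of Des, the gene of muscle desmin, had 0% in fat, 44.9% in newborn WGBS and 68.2% in the controls.

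Insulin signalling genes, which both hepatocytes and adipocytes use, had a fat-only tile in 11 of 34 (32.4%), but their 15 tiles were 1.93% of the compared tiles, close to the 1.59% of all genes, and the list had a median of 19 compared tiles per gene. Insr itself had 1 intronic tile with 24% in fat, 92.5% in the controls and 100% at 3 weeks, and no value in InsR KO. The tile of Irs1, the main receptor substrate, had 32.1% in fat and 86.4% in InsR KO. The tile of Ptpn1, coding for a phosphatase of the insulin receptor, had 26.1% in fat, 73.7% at 3 weeks, 91.2% in InsR KO and 50.2% in culture, the lowest cultured mean among the tiles of this list.

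Over the 3499 fat-only tiles with a value in each of the 16 hepatocyte samples, mean methylation was high at every age and genotype. It was 86.3 and 85.2% at 3 weeks, 87.2, 87.7 and 86.9% in controls injected at 1 day, and 86.8, 87.2 and 87.4% in controls injected at 3 weeks. DKO samples had 88.5 and 88.1% after injection at 1 day and 87.3 and 87% after injection at 3 weeks. InsR KO had 85.3 and 86.7%. The cultures had 82 and 83.5%, the lowest values of the 16. Newborn, adult WT and DKO WGBS of 6704 tiles gave 82.8, 82.5 and 82.7%, on another assay and tile size. As a check of the conditions, the hepatocyte-only tiles, which the rule chose as low in adult controls, were at 25.1% at 3 weeks, 9.39 and 10.5% in the controls, 43.6 and 29.6% in the DKOs, 21.2% in InsR KO and 42.1% in culture. The condition means of the fat-only tiles lay between 82.8 and 88.3%, and those of the hepatocyte-only tiles between 9.39 and 43.6%. Those of the neutrophil-only tiles lay between 84.8 and 89%, so the narrow range was not particular to the fat-only tiles. The control levels of each set follow from the rule.

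**Figure D2:**
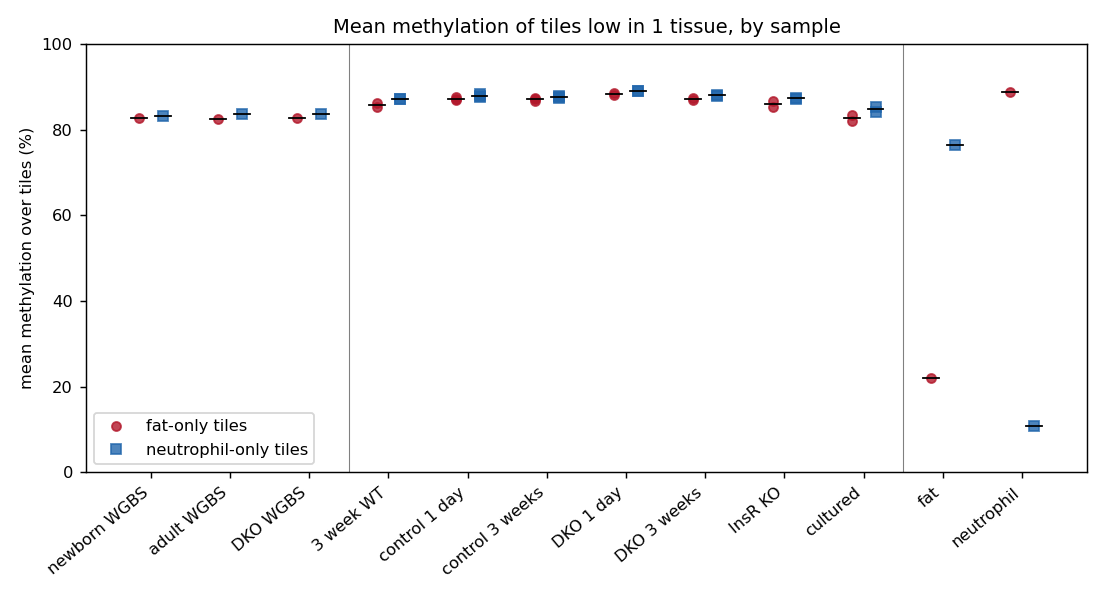
Mean methylation (vertical axis, %) of fat-only and neutrophil-only tiles in each sample (horizontal axis, by condition), with 1 point per sample and a line at the mean of the condition. WGBS values are means over 6704 fat-only tiles and RRBS values over 3499. All hepatocyte samples lie between 82 and 88.5% for the fat-only tiles, and fat at 21.9%.

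Single tiles varied more than the mean. A condition mean of at least 80% was found at 74.7% of the 3499 tiles at 3 weeks, at 80.3 and 79.1% in the controls of 1 day and 3 weeks, at 83.3 and 79.6% in the DKOs, at 74.9% in InsR KO and at 67.4% in culture. In all 7 conditions together this held for 1611 tiles (46%). A condition mean under 50% was found at 56 tiles (1.6%) at 3 weeks, 61 (1.74%) in InsR KO and 135 (3.86%) in culture, but at 14 and 8 in the controls and 18 and 26 in the DKOs. Altogether 225 tiles (6.43%) were under 50% in at least 1 condition. The lower numbers in the controls come with the rule, which required high control means.

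To ask whether these tiles lose or gain methylation between birth and adult life, newborn and adult WT WGBS were compared, with 1 library each and hence no test. The mean difference, newborn minus adult, was 0.35 points over 6704 fat-only tiles and 1.19 points over all tiles. Tiles at least 35 points higher in the newborn were 22 (0.328%) against a background of 1.02%, and tiles at least 35 points lower were 12 (0.179%) against 0.196%. The rule required high adult control values, which limits how many tiles can be low in the adult. Neutrophil-only tiles, chosen with the same requirement, had 0.192% higher and 0.651% lower in the newborn. The tile of Micall1 had 84.8% in the newborn and 27.4% in the adult library, with RRBS controls between 31 and 79.2% in the inner 100 bp and the cultures at 0 and 8.89%. In the other direction the tile of Lrrc50 had 34.9% in the newborn, 95% in the adult and 78.6% in the 1 culture with a value. The tile of Gata6, which codes for an endoderm and mesoderm factor, had 19.8% in the newborn, 74% in the adult and 13.3 and 25% in the cultures. The tile shared by Chkb and Cpt1b, the latter coding for the muscle form of carnitine palmitoyltransferase, had 30.1% in the newborn, 79.4% in the adult and 36.8 and 43.5% in the cultures. Newborn methylation under 50% was present in 2.64% of the tiles (177).

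Hepatocytes of 3 weeks were compared with the adult controls injected at 1 day. For contrasts with these controls, the tiles were chosen again with the controls of the other injection time only, which left 3464 tiles with all values for the contrasts with these controls, 3297 of them among the 6719, and 3504 for the contrast at 3 weeks, 3305 of them among the 6719. The 3 week mean was 85.6% ± 0.752 (SD, n = 2) and the control mean 86.6% ± 0.359 (SD, n = 3). They differed by -0.95 points, with p = 0.1 in an exact permutation test, two-sided as all such tests here, and 10 relabelings allow no smaller value. The difference was -1.48 points without 3 week WT replicate 1 and -0.42 points without replicate 2, beside -0.23 points over all compared and -0.56 points over neutrophil-only tiles. In limma on single tiles, a call needed an adjusted p under 0.05 and 35 points. No fat-only tile was called lower at 3 weeks (background 0.00778%), although 186 were lower at an unadjusted p under 0.05, 9 of them by 35 points, and 17 were called without 3 week WT replicate 1 and 4 without replicate 2. Higher at 3 weeks were 3 tiles (0.0866%, background 0.244%), 1 in Ppp1r13l and 2 neighbours 110134 and 110034 bp from Zfp36l1, named here after their values were seen.

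The pair near Zfp36l1 (chr12:81103801-81104000) was low in 1 group of controls. It had 5.08 to 34.3% in the controls injected at 1 day, but 91.7 to 100% at 3 weeks, 84.9 to 98.5% in DKO mice injected at 1 day and 80.6 to 99.3% in InsR KO. The controls injected at 3 weeks had 50 to 100%, so the pair met the limit with these alone but was not among the 6719, with means of 41.8 and 48.4% over all 6. The limma differences were 81.7 and 71.0 points for 3 weeks (SE 9.29 and 11.4, adjusted p = 0.0067 and 0.033), 72.4 and 73.0 points for the DKO (adjusted p = 0.0018 and 0.0061), and 74.0 and 65.1 points for InsR KO (adjusted p = 0.0034 and 0.024). These contrasts share the 3 control samples, so the differences are not independent. The intronic tile of Ppp1r13l, coding for an inhibitor of p53 and NF-κB, behaved likewise, with 44.7, 48.1 and 45.3% in the same controls, 87.5 and 75.9% at 3 weeks, 93.6 and 96.9% in the DKO and 80 and 85.2% in InsR KO.

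The DKO comparison asks whether methylation of these tiles depends on Tet2 and Tet3 in the hepatocyte. With injection at 1 day, the mean was 88.3% ± 0.288 (SD, n = 2) in the DKO and 86.6% ± 0.359 (SD, n = 3) in the controls, which is 1.71 points higher (exact permutation test, p = 0.1, again the smallest possible). All compared tiles differed by 1.78 points and neutrophil-only tiles by 1.27 points, so the difference was close to that of all compared tiles. With injection at 3 weeks the difference was 0.72 points, from 86.4% ± 0.392 (SD, n = 3) to 87.1% ± 0.247 (SD, n = 2), with p = 0.2 in the exact permutation test, against 0.94 points over all compared tiles. Over both injection times, permuting within each time, the DKO was 1.21 points higher (exact permutation test, p = 0.01, the smallest of 100 relabelings). In this joint test the controls of each time chose the tiles of the other, so both control groups entered the choice. No joint value was computed over all compared tiles. Their differences of 1.78 and 0.94 points were both above those of the fat-only tiles, so the rise was not particular to these. Over the fat-only tiles, the effects of the 2 injection times differed by 0.99 points (exact permutation test, p = 0.33).

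On single tiles, limma called 11 of 3464 (0.318%) higher in the DKO injected at 1 day against a background of 1.29%, and 0 lower (background 0.0412%). The rule required high control values, which leaves less room for a rise than over all tiles. Of the neutrophil-only tiles, chosen with the same requirement, 0.267% were called higher. At an unadjusted p under 0.05, 58 tiles were lower, none by 35 points, and 2 tiles were called lower without DKO 1 day replicate 2. Of the 11, only the tiles of Ppp1r13l, Ccdc12 and Zcchc24 were among the 6719. The tiles called higher were the pair near Zfp36l1, the tile of Ppp1r13l and 1 each in Mapkapk2, H13, Capzb, Mn1, Ccdc12, Pitpnc1 and Zcchc24 and near Arhgef37. Their controls were between 5.08 and 62.7%, and their DKO samples between 71 and 100%. Ccdc12 rose from 50.3, 62.5 and 52.6% to 92.8 and 94.2% (38.4 points, SE 4.43, adjusted p = 0.0009), and Mapkapk2, coding for a stress kinase, from 61, 31 and 59% to 100% in both mice (49.7 points, SE 9.96, adjusted p = 0.026). The count fell to 7 without control 1 day replicate 1 or 2, to 6 without DKO 1 day replicate 1 and to 4 without DKO 1 day replicate 2. For injection at 3 weeks limma called 0 of 3504 fat-only and 0 of 1510 neutrophil-only tiles in either direction. The backgrounds were 0.318% higher and 0.0198% lower. At an unadjusted p under 0.05, 113 tiles were higher and 91 lower, and leaving out DKO 3 weeks replicate 1 gave 2 calls lower and leaving out replicate 2 gave 1 higher. In WGBS, 23 of 6704 tiles (0.343%) were at least 35 points higher in the DKO than in the adult WT library (background 1.57%) and 2 (0.0298%, background 0.044%) were lower, near Foxs1 with 90.9 and 51.2% and in Csmd3 with 85.4 and 50%. Of the neutrophil-only tiles, 0.383% were higher and 0.0766% lower by this measure. The mean difference over the fat-only tiles was 0.23 points, against 1.20 points over all tiles.

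InsR KO removes the insulin receptor from hepatocytes. The mean was 86% ± 1.02 (SD, n = 2) against 86.6% ± 0.359 (SD, n = 3), and the samples overlapped. The difference was -0.58 points (exact permutation test, p = 0.5), beside 0.20 points over all compared and -0.52 points over neutrophil-only tiles. The sign of the fat-only difference turned with InsR KO replicate 1 left out (0.14 points), and without replicate 2 it was -1.30 points. A small number of tiles had a far lower value. Limma called 16 of 3464 lower (0.462%, background 0.286%) and 4 higher (0.115%, background 0.158%). Of 1499 neutrophil-only tiles, 4 (0.267%) were called lower and 0 higher. The rule required high control values, which leaves more room for a fall than over all tiles. The promoter tile of Epb4.1l1, coding for a membrane skeleton protein, fell from 97.9, 100 and 97.5% to 23.4 and 18.5% (-77.5 points, SE 2.11, adjusted p = 1.3e-07). The promoter tile of Plch2, a phospholipase C gene, fell from 93.8, 81 and 93.7% to 0% in both mice (-89.5 points, SE 4.78, adjusted p = 1e-05). In both, InsR KO values did not overlap the controls.

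A tile near Mettl21d fell by 76.6 points (SE 5.31, adjusted p = 6e-05 in limma), one near Ttc29 by 74.3 points with samples at 0 and 46.4%, and the intronic tile of Sh3pxd2a, coding for a podosome scaffold, by 67.2 points (SE 4.08, adjusted p = 2.5e-05). The coding exon tile of Zc3h12d fell by 59.4 points and a tile near Arhgef2 fell to 0% in both mice from 48.7, 65.6 and 58.6%. The other 9, in or near Fsip1, Tnni3k, Tomm7, Fbxw8, Etnk1, Ptov1, Kcnrg, Klf9 and Slc18a2, fell to between 17.9 and 75.4% in single mice. All 16 were among the 6719. The 4 tiles called higher were Ppp1r13l, the pair near Zfp36l1 and a tile near Ttc34 with 67.8, 41.2 and 49% in the controls and 84 and 98.4% in InsR KO. None of the 16 lower tiles is in a gene of the insulin signalling list, which held only 15 of the 6719 fat-only tiles, so the absence tells little. Without InsR KO replicate 2 the count of lower tiles was 34. The controls were those of the DKO mice, so that cohort and deletion cannot be told apart.

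The comparison of cultured with 3 week hepatocytes asks whether methylation of these tiles is kept in a dish. The cultured mean was 82.8% ± 1.05 (SD, n = 2) and the 3 week mean 85.7% ± 0.73 (SD, n = 2), a difference of -2.97 points. The samples did not overlap, but with 2 against 2 the exact permutation test cannot go below p = 0.333, which is the value it gave. Over all compared tiles the difference was 0.03 points (52.1 and 52%), and over neutrophil-only tiles -2.42 points. The distance between fat-only and neutrophil-only tiles was -3.40 points in culture 1, below all other samples, and -0.57 points in culture 2, within their range of -0.18 to -1.97. Age, sorting and culture differ together in this comparison and cannot be told apart, and no expression was measured in the cultures to count other liver cells.

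On single tiles, limma called 40 of 3499 fat-only tiles (1.14%) lower in culture, against a background of 0.131% of all 257117 tiles tested. The share was 0.183% of 117073 compared tiles with a control mean of at least 80%, whatever their neutrophil level. It was 4 of 1505 neutrophil-only tiles (0.266%). A total of 1 tile (0.0286%, background 0.217%) was called higher, 678298 bp from Nsun3, with 57.1 and 70% at 3 weeks and 100% in both cultures (36.4 points, SE 6.53, adjusted p = 0.035). The count of lower tiles ranged from 30 to 61 with 1 sample left out, the latter without cultured replicate 1, and was 14 with the test on the logit of the fractions. The count of higher tiles was 11 without 3 week WT replicate 1 and 3 without replicate 2.

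The 40 tiles formed 33 regions, with 18 tiles in introns, 12 intergenic, 7 in promoters and 3 in coding exons. Their mean was 88.9% at 3 weeks, 88.8% in the controls, 90.3% in DKO mice injected at 1 day, 89.2 and 88.8% in InsR KO and 88% in neutrophils. Newborn WGBS gave 81.2%, between 42.4 and 96.1%, with 1 tile under 50%. In the cultures they were at 22.1 and 36%, and in fat at 17.7%. On these means they were high in the other hepatocyte groups listed and in newborn DNA, and low in both cultures and in fat. The calls set the levels at 3 weeks and in culture, and the rule those in fat, neutrophils and controls. Newborn, DKO and InsR KO levels were not selected. Single tiles departed from the means, as Ccdc12 did with 50.3, 62.5 and 52.6% in the controls injected at 1 day.

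**Figure D3:**
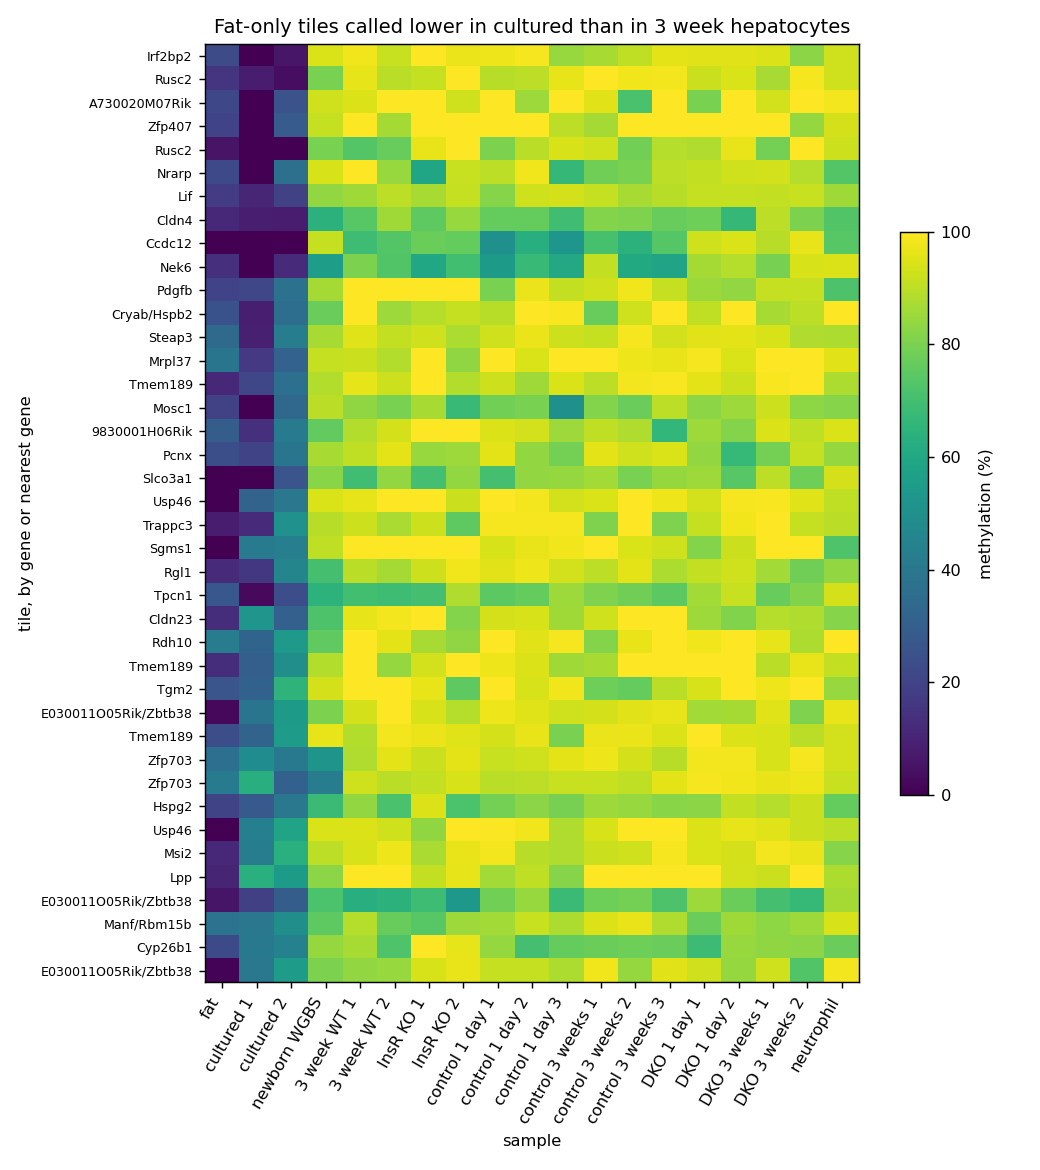
Methylation (colour, %) of the 40 fat-only tiles called lower in cultured than in 3 week hepatocytes (rows, by gene or nearest gene) in each sample (columns). The columns of fat and of both cultures are mostly dark, with means of 17.7, 22.1 and 36%. Those of all other samples are mostly bright, with newborn WGBS at 81.2%. The tiles were selected on fat, neutrophils, controls, 3 week samples and cultures.

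The largest fall was at a tile 53486 bp from Irf2bp2 (chr8:129063801-129063900), a corepressor gene, with 97.9 and 91.7% at 3 weeks and 0 and 5.88% in culture (-91.8 points, SE 5.36, adjusted p = 4.4e-05 in limma), and 94.5% in newborn WGBS. Both tiles of the Rusc2 intron fell, the first (chr4:43411601-43411700) from 73.1 and 76.9% to 0% in both cultures and the second (chr4:43411701-43411800) from 96.1 and 89.8% to 7.5 and 3.88% (-75.0 and -87.3 points, SE 6.99 and 4.26, adjusted p = 0.00068 and 1.5e-05). A tile 39252 bp from A730020M07Rik fell from 94.7 and 100% to 0 and 25.5% (-84.6 points, SE 11, adjusted p = 0.0056). An intronic tile of Zfp407, coding for a zinc finger protein, fell from 100 and 86.7% to 0 and 28.6% (-79.0 points, SE 9.02, adjusted p = 0.0025).

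The other 35 tiles fell by 36.8 to 73.9 points and are named with their values in view. A tile near Lif, a cytokine gene, fell from 85.7 and 90.1% to 10.7 and 19.8%, and one near Pdgfb, coding for a growth factor of mesenchymal cells, from 100% in both mice to 21.4 and 37.5%. Hspg2, the gene of the matrix proteoglycan perlecan, fell from 83.9 and 71.3% to 28 and 40%. The intron of Tgm2, coding for a matrix crosslinking enzyme, fell from 100% in both to 31.2 and 65%. The promoter tile of Cldn4, a tight junction gene, fell from 74 and 85.7% to 8.33 and 8.04%, and the promoter shared by the small heat shock genes Cryab and Hspb2 from 100 and 85.5% to 8.33 and 36.2%.

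Runs of neighbouring tiles fell together, 3 at the promoter of Zbtb38, 3 near Tmem189, and 2 each in Usp46, Rusc2 and Zfp703. The Zfp703 pair was the exception in the newborn, with 51.7 and 42.4% in newborn WGBS. Ccdc12, at 0% in both cultures, was also called higher in the DKO. None of the 40 tiles lies in a gene of the adipocyte, progenitor, endothelial, muscle or insulin lists, nor in Cyp26c1, Emid2 or S1pr2. These lists held only 39, 26, 7, 13 and 15 of the 6719 fat-only tiles, so the absence tells little.

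The AP-1 motif TGANTCA, which reads the same on both strands and is bound by FOS and JUN dimers, was found in the 300 bp around 23 of these 40 tiles (57.5%), or 20 of the 33 regions (60.6%), and inside the tile itself in 11. Over all 6719 fat-only tiles the share was 11.2%, over neutrophil-only tiles 9.1%, over hepatocyte-only tiles 8.85% and over all compared tiles 5.7%. The motif was also frequent outside the fat-only set, in 42.7% of 293 other tiles called lower in culture, against 6.67% of 540 called higher. The printed tiles of Pcnx and Slco3a1 each hold 2 matches, and those of A730020M07Rik, Cldn4, Tmem189 and Tgm2 hold 1. The 2 printed tiles of Rusc2, among the lowest in culture, hold none themselves, and the 300 bp around the second holds a match.

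Among all fat-only tiles, the NF1 motif TTGGCA, read on both strands, was found in 22.7% of the 300 bp windows, against 12.3% over all compared tiles, 12.6% over tiles of at least 80% in controls and neutrophils, 12% over neutrophil-only and 19.3% over hepatocyte-only tiles. The nuclear receptor motif AGGTCA was in 17.8%, against 14.2% overall and 29% of the hepatocyte-only windows. The C/EBP motif TTGCNNAA was in 12.1% against 11.5%, and the EBF motif CCCNNGGG in 16% against 16.5%, the latter in windows with fewer G and C (51% against 55.5%). Matches of letters are descriptions and do not show binding.

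**Figure D4:**
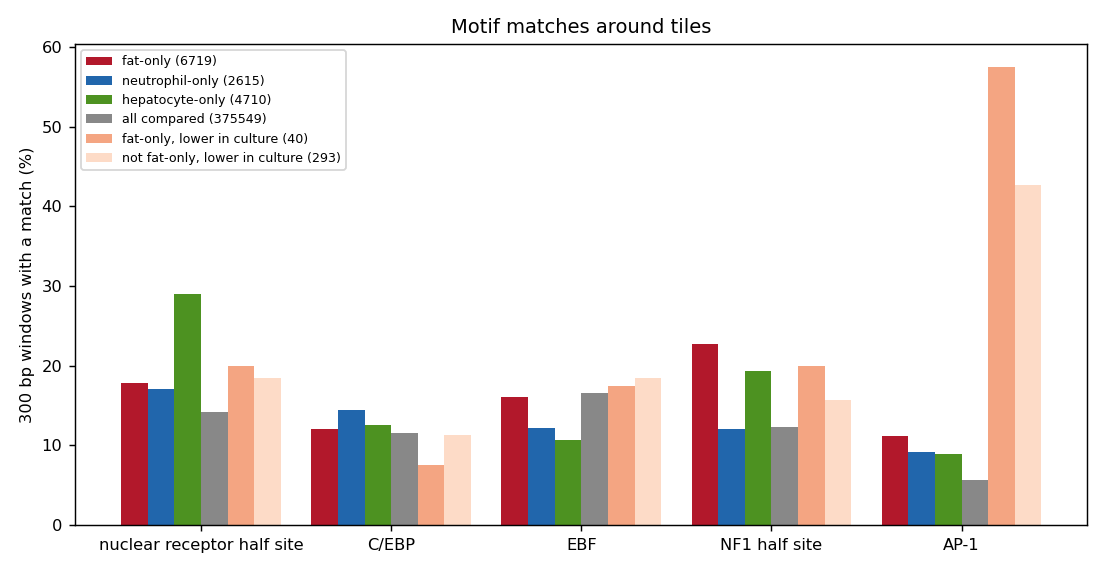
Share of 300 bp windows around tiles with at least 1 match (vertical axis, %) for each motif (horizontal axis) and set of tiles, with the number of tiles in parentheses. AP-1 stands at 57.5% in fat-only tiles called lower in culture and 11.2% in all fat-only tiles, and NF1 at 22.7% in fat-only and 12% in neutrophil-only tiles.

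Chromatin in the hepatocyte and liver libraries showed few peaks at the fat-only tiles. In WT, the enhancer mark H3K4me1 had a peak at 550 tiles (8.19%, 95% Wilson interval 7.55 to 8.87) against 18.9% of all compared, 67.2% of hepatocyte-only and 8.95% of neutrophil-only tiles. H3K27ac, a mark of active elements, was at 276 (4.11%, 3.66 to 4.61) against 19.6, 51.9 and 3.9%. Tiles of at least 80% methylation in controls and neutrophils, a closer match in level, had 3.67 and 2.01%, so the fat-only share was above theirs. Fat-only tiles could have lower control levels than these. In the DKO, H3K4me1 peaks lay at 6.21% and H3K27ac peaks at 5.31%, against 18.8 and 22.5% of all compared tiles. The methylated tiles had 2.91 and 2.5% there, and the neutrophil-only tiles 8.07 and 6.81%. Open chromatin by ATAC-Seq was at 0.536 and 0.298% of the tiles in the WT libraries and at 0.0149% (1 tile, in Zfhx3) and 0.58% in the DKO libraries, where all compared tiles had 6.55 to 7.09%. The methylated tiles had 0.0454 and 0.0879% in WT and 0.0437 and 0.0631% in the DKO, so the fat-only share was above theirs in 3 of the 4 libraries and below in the first DKO library. Neutrophil-only tiles had 1.34 and 1.64% in WT and 0.497 and 1.38% in the DKO, above the fat-only share in each library. Binding of HNF6, a liver factor, was found at 0 and 1 tile in WT (the latter in Rnd3; a count of 0 allows up to 0.0571% by the Wilson interval) and at 0 and 7 in the DKO (0.104% for the latter). All compared tiles had 0.179 and 0.348% in WT and 0.495 and 1.44% in the DKO, and the methylated tiles 0 and 0.00767% in WT and 0.0059 and 0.0808% in the DKO. The intervals cover counting error only. The 5hmC list of 20 day hepatocytes had a peak at 6.27% of the tiles, against 4.66% of all compared, 4.1% of the methylated and 18.1% of the hepatocyte-only tiles. Neutrophil-only tiles had 7.42%, above the fat-only share.

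**Figure D5:**
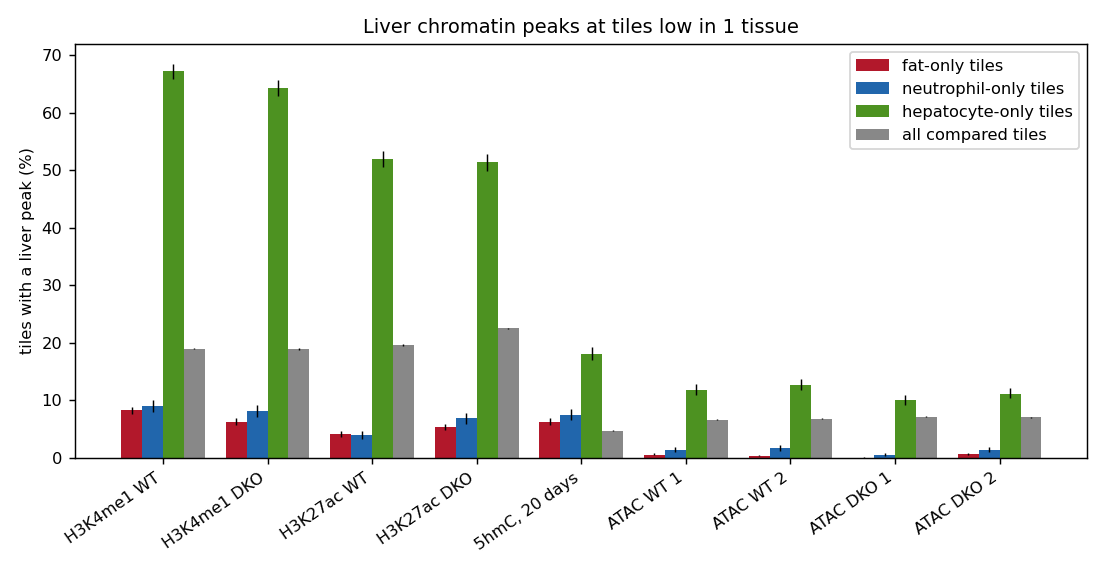
Share of tiles with a peak in each liver library (vertical axis, %; bars by set of tiles, error bars 95% Wilson intervals). Fat-only tiles reach 8.19% for WT H3K4me1, where hepatocyte-only tiles reach 67.2%, and stay under 1% in each ATAC-Seq library.

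The fat-only tiles with a WT H3K4me1 peak were somewhat less methylated in WT than the rest. Over the 295 such tiles with all values, the controls had 83.8 to 86.5%, the 3 week mice 84.9 and 84.3%, DKO mice 90.2 and 90% after injection at 1 day and 89.2 and 88.6% after injection at 3 weeks. WGBS over all 550 gave 79% in the newborn, 77.6% in the adult and 83.2% in the DKO. The tiles with no such peak had 87 to 87.9% in the controls and 88.4, 88, 87.1 and 86.8% in the DKOs. Each DKO sample was thus above each control at tiles with the peak, while DKO mice injected at 3 weeks overlapped the controls elsewhere. The controls entered the rule, and the difference between these groups of tiles was not tested. Of the 40 tiles that fell in culture, 7 (17.5%) had a WT H3K4me1 peak, against 8.19% of all fat-only and 18.9% of all compared tiles. A WT H3K27ac peak lay at 3 (7.5%), against 4.11 and 19.6%. WT ATAC-Seq peaks lay at 3 and 2 (7.5 and 5%), against 0.536 and 0.298% of all fat-only tiles. In the DKO, H3K4me1 was at 2 (5%, against 6.21%), H3K27ac at 7 (17.5%, against 5.31%) and ATAC-Seq at 0 and 2 (0 and 5%, against 0.0149 and 0.58%). These small counts were not tested.

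Genes that hold a fat-only tile had lower levels in hepatocytes than other genes with a compared tile, given here as a description. Of 1939 such genes in the expression table, 46.5% had at least 1 FPKM (fragments per kilobase of transcript and per read total) in WT at 15 weeks, against 53.5% of genes with a compared tile, 44.9% of those with a neutrophil-only and 67.7% of those with a hepatocyte-only tile. The medians were 0.622, 1.47, 0.569 and 4.57 FPKM. In bulk samples, fewer cells of a type and less RNA per cell cannot be told apart. Adipoq, Plin1, Retn, Ebf2 and Cidea were listed at 0 or under 0.1 FPKM in each of the hepatocyte libraries, whereas Gpam, which starts triglyceride synthesis in liver and fat alike, had 61.5, 46.5 and 52.2 FPKM at 15 weeks.

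Between WT mice of 3 and 15 weeks, limma on log2(FPKM + 1) called 291 of 1058 tested genes with a fat-only tile higher (27.5%, background 23.9%) and 132 lower (12.5%, background 9.3%). The median log2 difference was 0.17, against 0.15 over all genes. Named by largest fold, Aacs and Ugdh, enzymes of ketone body use and of UDP-glucuronate synthesis, rose by 3.01 log2 units each (SE 0.37 and 0.19), Camk1d, a calcium-dependent kinase gene, by 2.75 and the heparan sulfate gene Gpc1 by 2.70. Cux2 fell from 16.5, 8.4 and 16.2 FPKM to under 0.02 in all mice (-3.81 log2 units, SE 0.52, adjusted p = 9e-05). Sparc, a matrix gene of mesenchymal cells with 4 fat-only tiles, fell from 14.6, 28.3 and 42.5 FPKM to 3.07, 2.11 and 4.8 (-2.69, SE 0.44, adjusted p = 0.00042). Of 9 tested adipocyte genes with a tile, 4 rose, among them Cidec, Lipe and Gpam, the last by 1.82, and 2 fell (Aqp7, Adora1). The call on Aqp7 is a difference of -0.12 log2 units from 0.104, 0.113 and 0.0715 FPKM and passed in 3 of 6 fits with a sample left out. Both tested endothelial genes, Cdh5 and Kdr, fell by 0.88 and 0.93. The summed level of the 22 endothelial markers was 20.2 to 34.8 FPKM at 3 weeks and 5.75 to 11.6 at 15 weeks, and that of 45 mesenchymal markers 628 to 787 and 494 to 534. The part of such cells in these falls was not tested, and the endothelial sum was also 15.7 to 31.1 FPKM in DKO mice injected at 3 weeks and 3.92 to 15 in their controls.

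In the DKO, Tet2 and Tet3 are counted over whole genes, so that the deleted exons cannot be told apart and the values check nothing. Tet2 was at 2.82 to 4.08 FPKM after injection at 1 day, with controls at 0.89 to 2.13. With injection at 1 day, 185 genes with a fat-only tile were called lower (17.5%, background 15.7%) and 47 higher (4.44%, background 4.25%), near the background in both directions. The lower count was 104 without control 1 day replicate 3 or DKO 1 day replicate 1, and the higher 22 and 26. The median log2 difference was -0.11, as over all genes. Glul, the glutamine synthetase gene of hepatocytes around central veins, had 9.76, 11.8 and 11.6 FPKM in the DKO and 186, 76.7 and 184 in the controls (-3.53 log2 units, SE 0.57, adjusted p = 0.001). Slc1a2, a glutamate transporter gene, fell by 3.42 (SE 0.52, adjusted p = 0.00066) and Gpc1 by 2.11 (SE 0.24, adjusted p = 6.1e-05). Nnmt and Serpina12, the latter known as the adipokine vaspin, fell by 2.58 and 2.34. Pnpla3, a lipase gene of liver and fat, rose from 0.195, 0.304 and 0.0623 to 6.05, 7.48 and 10.8 FPKM (2.91 log2 units, SE 0.19, adjusted p = 4.7e-07). Adrbk2, Col27a1, Atp2b2 and Cerk rose by 1.12 to 1.87. Of the adipocyte list, 3 genes fell, among them Cidec and Rxrg by 0.64 and 0.71, and none rose, and of the insulin list Akt1 fell. Akt1 and Rxrg passed in only 1 and 2 of the 6 fits that left out a sample.

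With injection at 3 weeks, 108 such genes were called lower (10.2%, background 4.37%) and 3 higher (0.284%, background 0.829%). Their median was -0.22 log2 units and that of all genes -0.07. This count rests on single samples: it was 7 without DKO 3 weeks replicate 2, 54 without DKO 3 weeks replicate 1, 39 without control 3 weeks replicate 1 and 86 without control 3 weeks replicate 3. That last control stood apart, with 606 FPKM of Glul against 89 and 103. Camk1d fell from 11.6, 13.6 and 15 to 2.83 and 2.17 FPKM (-2.04 log2 units, SE 0.17, adjusted p = 1.7e-05) and Tiam2, an activator gene of Rac, by 1.95 (SE 0.24, adjusted p = 0.00079). Glul fell by 2.46 (adjusted p = 0.042, kept in 3 of 5 fits with a sample left out) and Dpy19l3 by 1.77 (kept in 1 of 5). Ctsf, Eif4ebp1 and Mtss1 were the 3 called higher, by 0.68, 0.68 and 0.67, and passed in 0, 1 and 1 of 5 such fits. Of the insulin list, Irs1 was called lower too (kept in 4 of 5).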

How the data were processed

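RRBS and WGBS were measured in the groups given above. Methylation was deposited by the authors as fractions per 100 bp tile (RRBS) or 200 bp tile (WGBS). Per the study's methods and the submitters' processing notes, reads were trimmed with Trim Galore 0.3.3, aligned to mm9 with BSMAP 2.74, and tiles kept with a coverage of at least 10 (RRBS) or 15 (WGBS) CpGs. The deposited fractions carry no coverage, so depth behind each value is unknown and no interval is given. The authors computed the FPKM values from TopHat2 alignments by means of Cufflinks, and the deposited peak lists hold peak scores from HOMER, called per library on Bowtie2 2.2.4 alignments, histone marks and HNF6 against input and ATAC-Seq and 5hmC without. The score entered only the alternative limits on peaks.

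Tiles were compared in percentage points. RRBS columns named by animal number were linked to conditions through the same numbers in the columns of the expression table, and replicate numbers are column order. Of the per-sample columns, 49 were not used, those that could not be linked to a sample among them. The series also holds heart, lung, hippocampus and colon samples, which did not enter the rule. Fat-only is therefore meant relative to neutrophils and hepatocytes alone. Limma 3.58.1 in R 4.3.3 was fitted to fractions of 257117 tiles with values in all 16 hepatocyte samples and to log2(FPKM + 1) of genes with a group mean of at least 1 FPKM, with all groups in the fit and Benjamini-Hochberg adjustment over all tiles or genes. Mean methylation over tiles was compared by exact permutation of samples. WGBS, having 1 library per group, was compared with no test. A peak counted with an overlap of at least 1 bp. Motifs were searched in the 300 bp around each tile. The WGBS value of an RRBS tile is that of the 200 bp tile covering it. On simulated data with 200 changed features, the fit recovered 149 changed tiles with 0 false calls for cultured against 3 week samples, and 194 changed genes with 5 false calls for DKO against control after injection at 1 day.

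Members, gene lists, motifs and tests were chosen with earlier results of these data known. Named by rule were the 8 runs with most tiles, the 5 tiles with the largest distance, up to 4 list genes per list, the 5 largest called changes each way in culture and in expression, the 3 largest falls and rises from newborn to adult WGBS, the tiles at the limit, and the expressed list genes with a tile. The genes with the most tiles, the tiles called in DKO or InsR KO samples and the remaining tiles that fell in culture were named after their values were seen, as were further list genes. Alternatives were other limits on the distance, the logit of the fractions, a smaller difference for a call, the median in place of the mean, no filter or another pseudocount on FPKM, stricter peaks and leaving out each sample in turn. Some items that the rule names are not reported here.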

Additional observations from a re-analysis of the deposited data

How the results depend on the processing

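Of 212 alternative values, 156 met the standard set for them, 54 moved beyond it and 2 changed sign. Of the 112 that left out a sample, 83 met it. For the RRBS mean differences the standard was the sign alone, so their size could change freely. For the DKO over both injection times it was the sign and the side of the 0.05 threshold in the permutation test. For the other results it was a spread, an interval or a 1.5-fold range. The 2 sign changes were those of the InsR KO mean difference, at 0.05 points as a median over tiles and 0.14 points without InsR KO replicate 1 (range with a sample left out -1.30 to 0.14). The causes of the shifts below were not tested unless the alternative itself sets them.

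A limit of 40 points in place of 50 gave 11638 fat-only tiles and a limit of 60 points 3551, by construction. On the logit of fractions, limma called 14 tiles lower in culture, 5 higher in the DKO injected at 1 day, 7 lower and 0 higher in InsR KO and 1 higher at 3 weeks, and with 25 points 1 tile was lower at 3 weeks. With a sample left out, counts ranged from 30 to 61 lower and 1 to 11 higher in culture, 0 to 2 lower and 4 to 9 higher in the DKO injected at 1 day, 0 to 2 lower and 0 to 1 higher in the DKO injected at 3 weeks, 11 to 34 lower and 2 to 5 higher in InsR KO, and 0 to 17 lower and 1 to 2 higher at 3 weeks.

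For expression, leaving out a sample gave 22 to 49 genes higher and 104 to 173 lower in the DKO injected at 1 day, 0 to 4 higher and 7 to 86 lower in the DKO injected at 3 weeks, and 207 to 313 higher and 100 to 172 lower at 15 weeks. Without the filter on low values, 70 genes were lower in the DKO injected at 3 weeks and 263 at 15 weeks. Taking only peaks with a score at or above the list's median gave 1.91 and 3.91% of tiles for WT H3K27ac and H3K4me1, 2.89 and 3.2% for the DKO, 0.0149 and 0.0298% for WT ATAC-Seq, 0 and 0.0149% for DKO ATAC-Seq, 0% for the second WT and 0.0298% for the second DKO HNF6 library, and 2.69% for 5hmC. An overlap of at least 50 bp gave 0.223 and 0.179% for WT ATAC-Seq, 0 and 0.327% for DKO ATAC-Seq and 5.13% for 5hmC. Using tiles with values in the compared samples only was added after the data were seen and kept the direction of each mean difference. The planned restriction to autosomes was not run apart, since the table holds autosomes only.

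No paired analysis was possible because the columns carry animal numbers and not the replicate numbers of the labels. The fractions come without coverage, 2 samples per group limit each tile test, and fat and neutrophils are single samples.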
